A study of Rattus norvegicus with 16 samples.

Results

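The SNARE and vesicle fusion machinery is represented here by 5 genes, Snap25, Stx1a, Vamp2, Nsf and Sytl4, in cultured rat pancreatic islets. The members are all probe sets of the array that the annotation gives to these symbols alone, which makes 9 probe sets of 31042 on the array without its controls. The array has 14217 genes with such a probe set. A probe set is a group of short probes for 1 transcript. Snap25 and Sytl4 have 1 probe set each, Stx1a and Vamp2 have 2 each and Nsf has 3. Probe sets of 1 gene share a target and are not independent measurements of it. Differences were tested for 18625 probe sets, the upper 60% by mean level, among them 8 of the 9 members. The ninth, Vamp2 1371160_at, lay near the floor of the signal.

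The islets came from male Wistar rats of 180 to 200 g. All groups shared a preculture of 1 week at 10 mmol/l glucose in RPMI medium without serum, with BSA at 5 g/l. They were then cultured for 18 h in the same kind of medium in glucose at 2, 5, 10 or 30 mmol/l, with 1000 islets per condition, and RNA was read on 4 arrays per concentration (16 in all). The experiment was done 4 times, each with islets prepared anew, so that the arrays of 1 replicate number, 1 per concentration, are called a preparation below. No label says whether the islets of a preparation came from several rats, so the p-values measure the spread between preparations as collected.

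Insulin leaves the beta cell when the membrane of a secretory granule fuses with the plasma membrane. The granule carries a vesicle SNARE protein and the plasma membrane carries target SNARE proteins, and these zip together into a complex that pulls the membranes into contact. After fusion an ATPase takes the complex apart so that its parts can be used again, while Rab effector proteins tether granules at the membrane before fusion. The same proteins release neurotransmitter from nerve terminals.

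On the rat GRCr8 assembly of RefSeq, Snap25 lies at chr3:144494579-144576449 and Stx1a at chr12:27278517-27306547. Vamp2 lies at chr10:54292423-54296657, Nsf at chr10:89227937-89357383 and Sytl4 at chrX:101428785-101479207. The files used here name no build and give no positions for the probes, so an exon or UTR cannot be named for a probe set. RefSeq sequence around the start site (250 bases before it to 50 after it, GRCr8) was matched for 4 of the 5 genes, namely Stx1a, Vamp2, Nsf and Sytl4. Each window is set on a single start site, which need not be the outer end of the gene as placed above. The Vamp2 window, chr10:54292539-54292838, lies wholly within its gene. The sequences of Nsf and Sytl4 are shown because their signals moved together across the arrays, and that of Stx1a because its signal passed no test. Capitals mark matches on either strand to the GC box GGGCGG, the E-box CACGTG, the CCAAT box, the TATA box TATAAA, or the cAMP response element as its short form TGACG and its full form TGACGTCA. On the other strand the CCAAT box reads ATTGG.
Nsf, chr10:89357334-89357633, minus strand: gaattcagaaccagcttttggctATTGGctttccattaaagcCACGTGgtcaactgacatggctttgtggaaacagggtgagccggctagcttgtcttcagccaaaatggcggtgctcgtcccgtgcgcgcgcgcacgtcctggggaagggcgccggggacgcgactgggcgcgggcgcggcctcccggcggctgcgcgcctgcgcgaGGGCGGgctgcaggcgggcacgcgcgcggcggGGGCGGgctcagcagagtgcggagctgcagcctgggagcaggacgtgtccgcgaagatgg
Sytl4, chrX:101479102-101479401, minus strand: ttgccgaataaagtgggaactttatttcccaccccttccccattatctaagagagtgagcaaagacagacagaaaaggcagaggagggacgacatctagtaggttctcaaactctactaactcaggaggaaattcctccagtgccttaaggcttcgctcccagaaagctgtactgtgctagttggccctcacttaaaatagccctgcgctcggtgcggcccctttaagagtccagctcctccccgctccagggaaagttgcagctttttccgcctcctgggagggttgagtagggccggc
Stx1a, chr12:27306422-27306721, minus strand: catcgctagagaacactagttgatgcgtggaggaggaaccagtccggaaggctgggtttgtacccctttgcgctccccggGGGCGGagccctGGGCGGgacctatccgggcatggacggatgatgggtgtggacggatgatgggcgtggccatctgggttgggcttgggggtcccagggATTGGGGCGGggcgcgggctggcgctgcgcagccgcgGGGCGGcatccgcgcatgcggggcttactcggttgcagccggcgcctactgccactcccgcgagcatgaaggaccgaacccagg

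The Nsf window held 2 GC boxes at -42 and -10 from the start site, 1 E-box at -208 and 1 CCAAT at -227. The Sytl4 window held no match to any of the 6 motifs. The Stx1a window held 4 GC boxes and 1 CCAAT at -71, which overlaps the GC box at -67, and the Vamp2 window held 3 GC boxes and 1 TGACG at -29. G and C made up 68.7% of the Nsf window, 52.7% of the Sytl4 window, 68.7% of the Stx1a window and 69.3% of the Vamp2 window. Of 33469 rat promoter windows of the same length, 33.1% held GGGCGG, 37.5% held CCAAT, 6.42% held CACGTG, 21.2% held TGACG, 1.83% held TGACGTCA and 14.2% held TATAAA. These matches describe letters in the windows, and no binding was measured.

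Signals have the units that the authors' scaling left, with a mean close to 150 on each array after trimming 2% of probe sets at each end. Differences are log2 differences of group means ± SE (n = 4 arrays per group), and a difference is called changed at an adjusted p under 0.05 by limma over the 18625 probe sets. The number of arrays limits the precision. Each concentration was handled on 1 of 4 modules of the fluidics station, so module and glucose cannot be told apart. The hybridization controls, spiked RNA added to every array, averaged 9.28 to 9.53 on the log2 scale at 2 mmol/l, 9.37 to 9.92 at 5 mmol/l, 9.84 to 10.08 at 10 mmol/l and 9.63 to 9.75 at 30 mmol/l. The ratio of 3' to 5' signal of Actb, a sign of RNA integrity, averaged 1.76 at 2 mmol/l and 2.04, 2.07 and 2.04 at 5, 10 and 30 mmol/l. That of Gapdh had another order, with 0.86, 0.82, 0.80 and 0.90 at 2, 5, 10 and 30 mmol/l. The part of these differences in the results below was not tested. In bulk islets, fewer cells of a type and less RNA per cell cannot be told apart.

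Of the 5 genes, 4 changed across the glucose concentrations, and every change called was toward higher signal at higher glucose. By the F-test of limma over the 4 concentrations, 6 of the 8 tested member probe sets changed, where 41.8% of all tested probe sets did. These were Snap25, 1 probe set of Vamp2, the 3 probe sets of Nsf and Sytl4, and neither Stx1a probe set passed. The Vamp2 probe set had an adjusted p of 0.0182 (F-test of limma). The count was 5 at an adjusted p under 0.01 (29.0% of all tested probe sets) and 5 with no level filter (23.3%). Between 10 and 5 mmol/l 4 members rose and 0 fell, against a background of 10.0% of probe sets higher and 11.1% lower. This fit does not use the pairing of arrays by preparation. With preparation as a fixed block 6 of the 8 were called at this step, where 31.7% of all tested probe sets were called in either direction. With a random block the count was 5 (30.2%). Between 10 and 2 mmol/l 6 members rose (background 15.6% higher, 16.9% lower), and the same number rose between 30 and 2 mmol/l (16.3% higher, 20.6% lower). Between 30 and 5 mmol/l 5 members rose (12.7% higher, 16.8% lower). Comparisons of this kind that share a concentration share its arrays, so their counts are not independent.

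No member was called at the outer steps of the range. Between 5 and 2 mmol/l no member passed the test of limma (0 of 8, where 1.66% of probe sets were higher and 0.940% lower). Between 30 and 10 mmol/l the count was again 0 of 8 (3.26% higher, 3.56% lower). At an unadjusted p under 0.05 the count was 0 of 8 at both steps as well, with limma as the tool run. The share of all tested probe sets under that threshold was not counted, so this count has no background beside it.

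**Figure D1:**
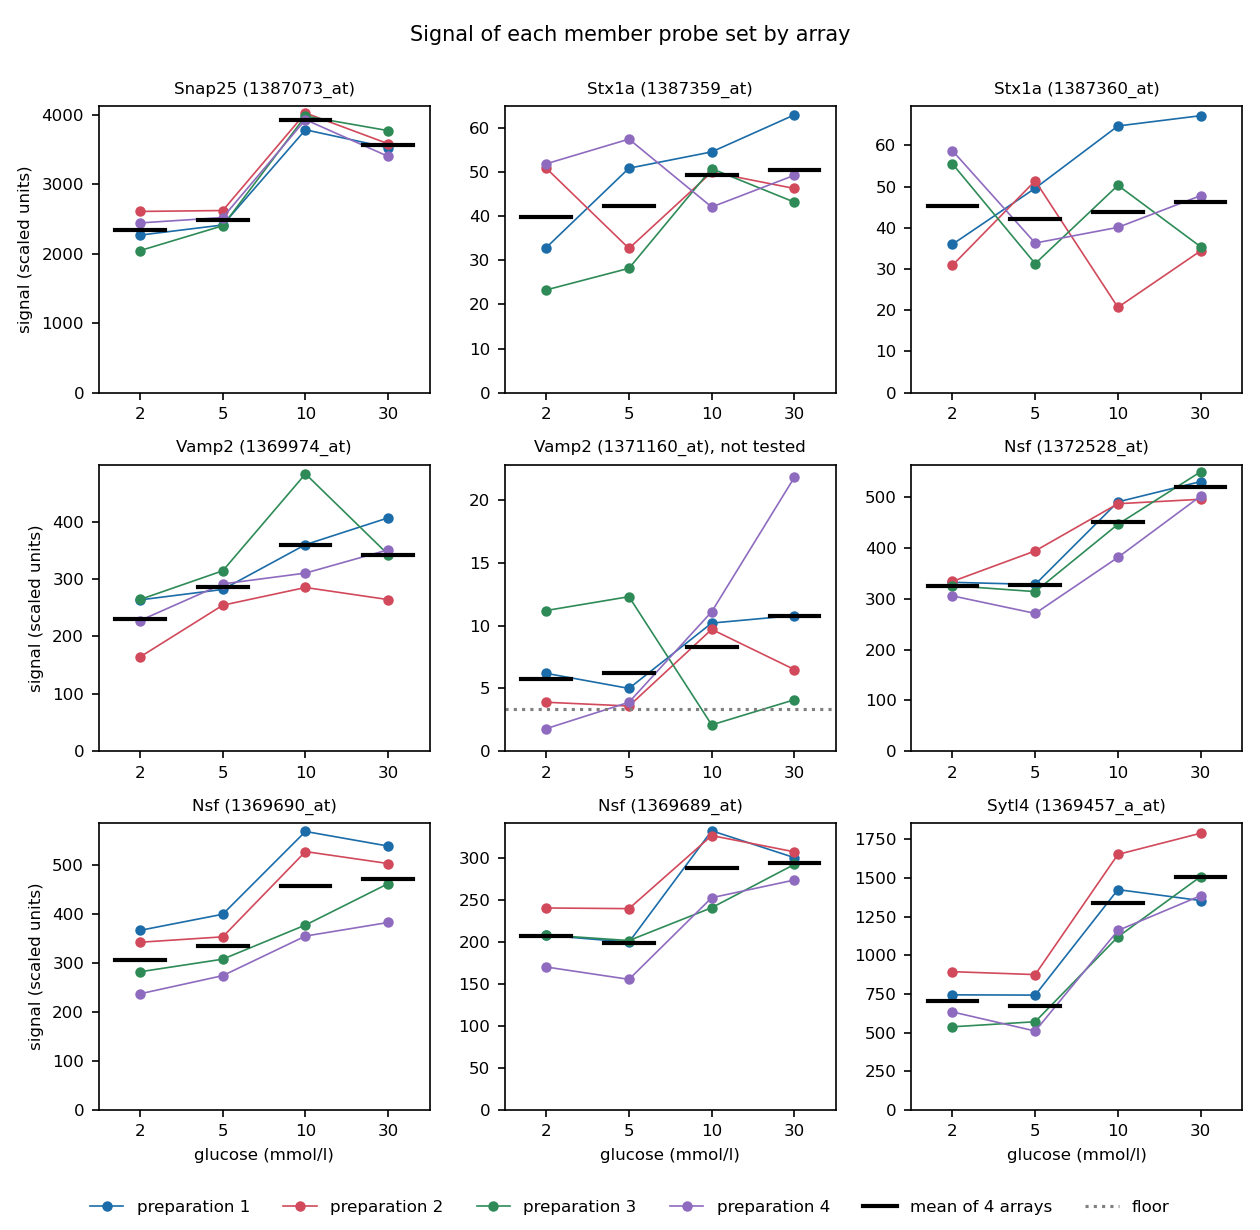
Signal of the 9 member probe sets (vertical axis, scaled units, starting at 0 in each panel) by glucose concentration in mmol/l (horizontal axis), with 1 point per array joined within a preparation and black bars for the mean of 4 arrays. Snap25 and Sytl4 step up between 5 and 10 mmol/l in all 4 preparations, the lines of Stx1a cross, and the dotted line at 3.4 is the floor near which Vamp2 1371160_at lies.

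Snap25 is a target SNARE of the plasma membrane that supplies helices to the fusion complex. Its signal (1387073_at) was 2269, 2610, 2046 and 2445 at 2 mmol/l and 2415, 2623, 2404 and 2522 at 5 mmol/l, in the order of preparations 1 to 4. It was 3786, 4028, 3983 and 3932 at 10 mmol/l, and 3529, 3585, 3774 and 3403 at 30 mmol/l. All 8 arrays at 10 and 30 mmol/l were above all 8 arrays at 2 and 5 mmol/l. Among all tested probe sets, 22.6% had groups without overlap in either direction for 10 over 5 mmol/l and 30.7% for 10 over 2 mmol/l. The share was 33.9% for 30 over 2, 28.6% for 30 over 5 and 12.5% for 30 over 10 mmol/l. These shares also stand beside the separations given below. No share was counted for all 8 against all 8. The mean was 3932 ± 105 at 10 mmol/l against 2491 ± 103 at 5 mmol/l (SD, n = 4), a log2 difference of 0.66 ± 0.07 (1.58-fold, adjusted p = 2.35e-06, limma). Within preparations the ratio of 10 to 5 mmol/l was 1.57, 1.54, 1.66 and 1.56. By the F-test Snap25 ranked 275 of the 18625 probe sets (adjusted p = 9.59e-08, limma).

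Snap25 also rose in the other comparisons across that gap. The log2 difference was 0.75 ± 0.07 for 10 over 2 mmol/l (adjusted p = 2.82e-07, limma), 0.61 ± 0.07 for 30 over 2 mmol/l (1.66e-06) and 0.52 ± 0.07 for 30 over 5 mmol/l (1.44e-05). With quantile normalization, which forces all arrays to 1 distribution, the values were 0.48 for 10 over 2 mmol/l and 0.30 for 30 over 2 mmol/l, and both stayed called. The 5 over 2 mmol/l difference was 0.09 ± 0.07 (adjusted p = 0.571). At 30 mmol/l all 4 arrays were below all 4 arrays at 10 mmol/l and the signal was lower in 4 of 4 preparations, but the difference of -0.14 ± 0.07 did not pass (adjusted p = 0.268, limma, 95% interval -0.28 to 0.01).

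Stx1a, the target SNARE that pairs with Snap25 on the plasma membrane, lay near the middle of all probe sets in mean level, at percentiles 50.3 and 49.7. The Stx1a probe set 1387359_at read 32.9, 50.9, 23.3 and 51.9 at 2 mmol/l, 50.9, 32.7, 28.2 and 57.5 at 5 mmol/l, 54.6, 50, 50.8 and 42.1 at 10 mmol/l, and 63.0, 46.3, 43.2 and 49.3 at 30 mmol/l. The other, 1387360_at, read 36.0, 30.9, 55.5 and 58.7 at 2 mmol/l, 49.6, 51.4, 31.3 and 36.3 at 5 mmol/l, 64.7, 20.7, 50.3 and 40.1 at 10 mmol/l, and 67.2, 34.4, 35.4 and 47.8 at 30 mmol/l. Every pair of concentrations overlapped in both probe sets. For 1387359_at the 10 over 5 mmol/l difference was 0.28 ± 0.27 (adjusted p = 0.524, limma, 95% interval -0.29 to 0.85). For 1387360_at it was -0.03 ± 0.33 (adjusted p = 0.970, limma, 95% interval -0.72 to 0.67). Both intervals hold the 0.66 measured for Snap25, that of 1387360_at close to its upper end, so a change of that size in Stx1a is not excluded. Pearson r between the 2 probe sets was 0.11 over the 16 arrays.

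Vamp2, also called synaptobrevin, is the vesicle SNARE of synaptic vesicles and insulin granules. Its probe set 1369974_at read 264, 164, 265 and 228 at 2 mmol/l, 282, 255, 315 and 292 at 5 mmol/l, 360, 285, 483 and 311 at 10 mmol/l, and 407, 264, 343 and 351 at 30 mmol/l. All 4 arrays at 10 mmol/l were above all 4 at 2 mmol/l, whereas 30 and 2 mmol/l overlapped by a margin within 1 unit of signal. Vamp2 rose by 0.64 ± 0.17 for 10 over 2 mmol/l (1.56-fold, adjusted p = 0.00748, limma) and by 0.58 ± 0.17 for 30 over 2 mmol/l (adjusted p = 0.0127). The second call was lost without the 2 mmol/l array of preparation 2 (0.42, adjusted p = 0.0545) and without preparation 4 (adjusted p = 0.0713).

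The steps from 2 to 5 and from 5 to 10 mmol/l had close values for Vamp2, and neither passed alone. The difference was 0.33 ± 0.17 for 5 over 2 mmol/l (adjusted p = 0.363, limma) and 0.31 ± 0.17 for 10 over 5 mmol/l (adjusted p = 0.226), and the signal was higher in 4 of 4 preparations at both steps. With preparation as a fixed block the second passed (adjusted p = 0.0334) and the first did not (adjusted p = 0.0537). With preparation as a random block, at an estimated correlation, neither passed (adjusted p = 0.0787 and 0.122), nor did either with scan day as a block (0.193 and 0.278). The second Vamp2 probe set, 1371160_at, ranged from 1.8 to 21.8 over the 16 arrays and was not tested. Its arrays at 10 mmol/l read 10.2, 9.7, 2.1 and 11.1, against 5.0, 3.6, 12.3 and 3.9 at 5 mmol/l. These values are near the floor of 3.4, and no direction is read from them.

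Nsf is the ATPase that takes spent SNARE complexes apart after fusion. Its probe set 1372528_at read 333, 334, 326 and 306 at 2 mmol/l, 328, 394, 314 and 271 at 5 mmol/l, 491, 487, 447 and 382 at 10 mmol/l, and 531, 496, 550 and 502 at 30 mmol/l. The lowest array at 10 mmol/l, of preparation 4, was below the highest at 5 mmol/l, of preparation 2, while all 4 arrays at 30 mmol/l were above the other 12. The nearest were 496 at 30 mmol/l and 491 at 10 mmol/l, and no share of all tested probe sets was counted for 4 arrays against 12. The signal rose for 10 over 5 mmol/l by 0.47 ± 0.11 (1.39-fold, adjusted p = 0.00341, limma) and for 30 over 2 mmol/l by 0.68 ± 0.11 (1.60-fold, adjusted p = 5.97e-05). The further step from 10 to 30 mmol/l was 0.21 ± 0.11, higher in 4 of 4 preparations, and did not pass (adjusted p = 0.281, limma).

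The other Nsf probe sets gave the same direction. Probe set 1369689_at read 208, 240, 208 and 170 at 2 mmol/l, 200, 240, 202 and 155 at 5 mmol/l, 332, 327, 241 and 253 at 10 mmol/l, and 300.3, 307, 292 and 274 at 30 mmol/l. All 8 arrays at 10 and 30 mmol/l were above all 8 at 2 and 5 mmol/l, the nearest by less than 1 unit of signal. It rose for 10 over 5 mmol/l by 0.53 ± 0.14 (adjusted p = 0.00997, limma), a call lost without preparation 1 (adjusted p = 0.0787), and for 30 over 2 mmol/l by 0.51 ± 0.14 (adjusted p = 0.00707). Its rise of 0.47 ± 0.14 for 10 over 2 mmol/l (adjusted p = 0.0137) was lost without preparation 1 (0.0959) and without the 2 mmol/l array of preparation 4 (0.0553).

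Probe set 1369690_at read 366, 342, 282 and 237 at 2 mmol/l, 399, 353, 307 and 274 at 5 mmol/l, 568, 527, 377 and 354 at 10 mmol/l, and 538, 502, 461 and 382 at 30 mmol/l. Preparation 1 was highest and preparation 4 lowest at 4 of 4 concentrations, and the groups at 10 and 5 mmol/l overlapped. Its 10 over 5 mmol/l difference of 0.44 ± 0.17 did not pass (adjusted p = 0.0744, limma), but it was higher in 4 of 4 preparations and passed with preparation as a block, fixed (adjusted p = 1.51e-04) or random (0.00659), and with scan day as a block (0.00285). It also passed without the 5 mmol/l array of preparation 1 (0.0475) and without the 10 mmol/l array of preparation 4 (0.0334). It rose for 30 over 2 mmol/l by 0.63 ± 0.17 (adjusted p = 0.00683, limma). The rise for 10 over 2 mmol/l was 0.57 ± 0.17 (adjusted p = 0.0154), lost without preparation 2 (0.0712), without the 2 mmol/l array of preparation 4 (0.0622), and without the 10 mmol/l arrays of preparation 1 (0.0595) or 2 (0.0541). The rise for 30 over 5 mmol/l was 0.50 ± 0.17 (adjusted p = 0.0314), lost without preparation 2 (0.101), without preparation 3 (0.130), and without any of 5 single arrays. It was also lost with median centring (0.0762), with no level filter (0.0726) and with no mean-variance trend in limma (0.0540).

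Sytl4, or granuphilin, is a Rab27 effector on insulin granules that binds syntaxin and holds granules at the plasma membrane. It showed the largest fold of the 5 genes in the 10 over 5 mmol/l comparison. Its signal (1369457_a_at) was 744, 894, 537 and 633 at 2 mmol/l, 742, 875, 570 and 510 at 5 mmol/l, 1424, 1652, 1119 and 1160 at 10 mmol/l, and 1353, 1789, 1508 and 1385 at 30 mmol/l. All 8 arrays at 10 and 30 mmol/l were above all 8 at 2 and 5 mmol/l. The mean was 1339 ± 249 at 10 mmol/l against 674 ± 166 at 5 mmol/l (SD, n = 4), a rise of 1.00 ± 0.17 (2.01-fold, adjusted p = 3.69e-04, limma). The ratios within preparations were 1.92, 1.89, 1.96 and 2.28.

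For 30 over 5 mmol/l Sytl4 rose by 1.19 ± 0.17 (2.28-fold, adjusted p = 3.93e-05, limma), for 30 over 2 mmol/l by 1.12 ± 0.17 (2.17-fold, adjusted p = 5.27e-05) and for 10 over 2 mmol/l by 0.94 ± 0.17 (adjusted p = 3.82e-04). The outer steps did not pass. The 5 over 2 mmol/l difference was -0.07 ± 0.17 (adjusted p = 0.913, limma) and that of 30 over 10 mmol/l was 0.18 ± 0.17 (adjusted p = 0.627), higher in 3 of 4 preparations.

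**Figure D2:**
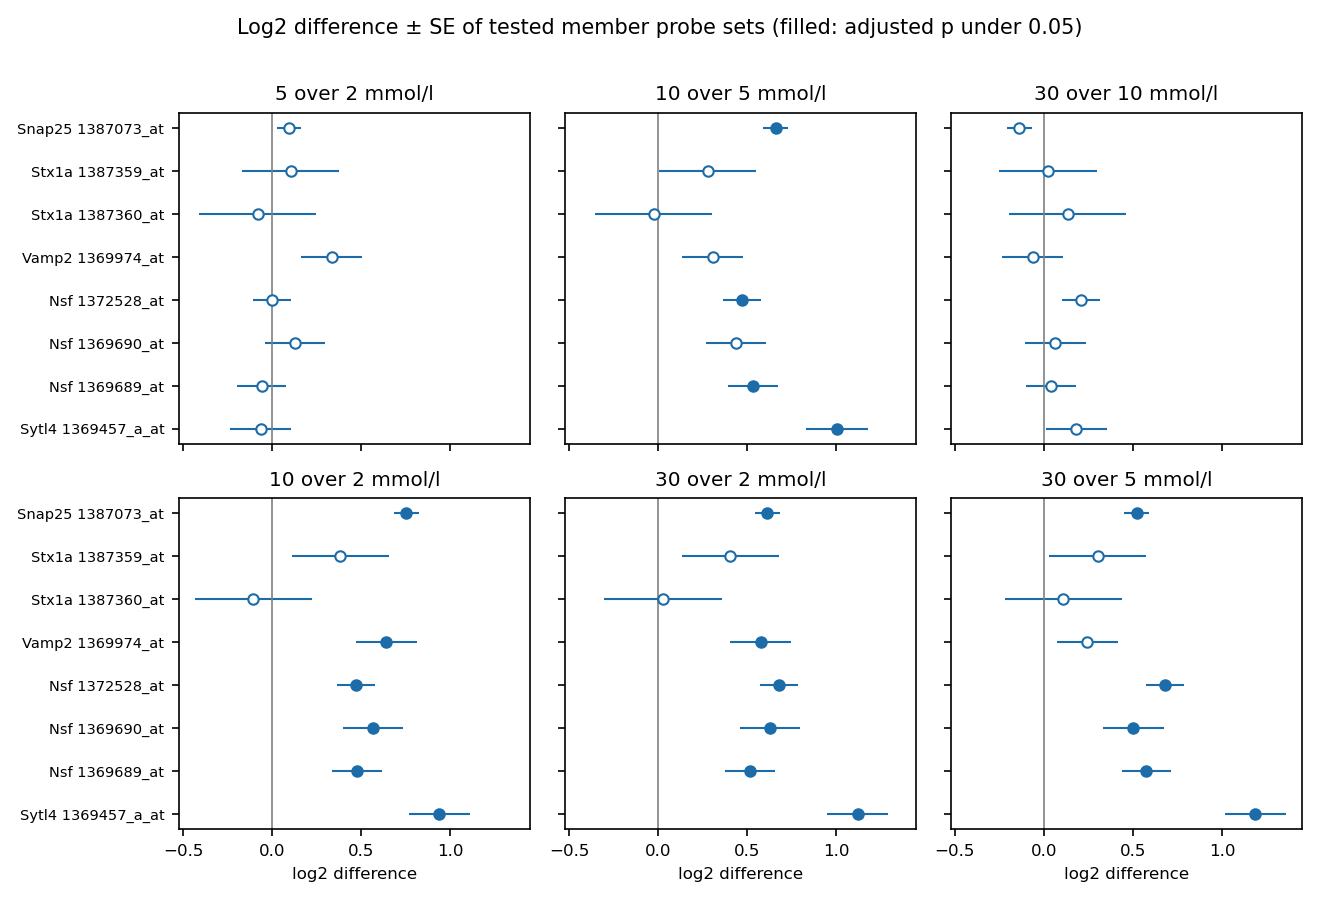
Log2 difference ± SE (horizontal axis) of the 8 tested member probe sets in the 6 pairs of concentrations, filled where the adjusted p of limma was under 0.05. Filled points appear in the 4 pairs that span 5 to 10 mmol/l and lie to the right of 0, whereas the 5 over 2 and 30 over 10 mmol/l panels hold open points.

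The islet preparations differed in level more for some members than for others. Averaged over the concentrations after removal of group means, the highest and the lowest preparation were 0.11 apart in log2 for Snap25, 0.25 for Nsf 1372528_at, 0.42 for Nsf 1369689_at, 0.53 for Stx1a 1387359_at, 0.53 for Vamp2 1369974_at, 0.54 for Sytl4, 0.59 for Nsf 1369690_at and 0.69 for Stx1a 1387360_at. Sytl4 was highest in preparation 2 at 4 of 4 concentrations, and Vamp2 1369974_at was lowest there at 4 of 4. After removal of group means, Pearson r over the 16 arrays was 0.66 to 0.81 between the 3 Nsf probe sets, 0.66 to 0.78 between Sytl4 and those of Nsf, and -0.69 between Sytl4 and Vamp2 1369974_at. These are descriptions over arrays that share 4 preparations and their fluidics runs.

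**Figure D3:**
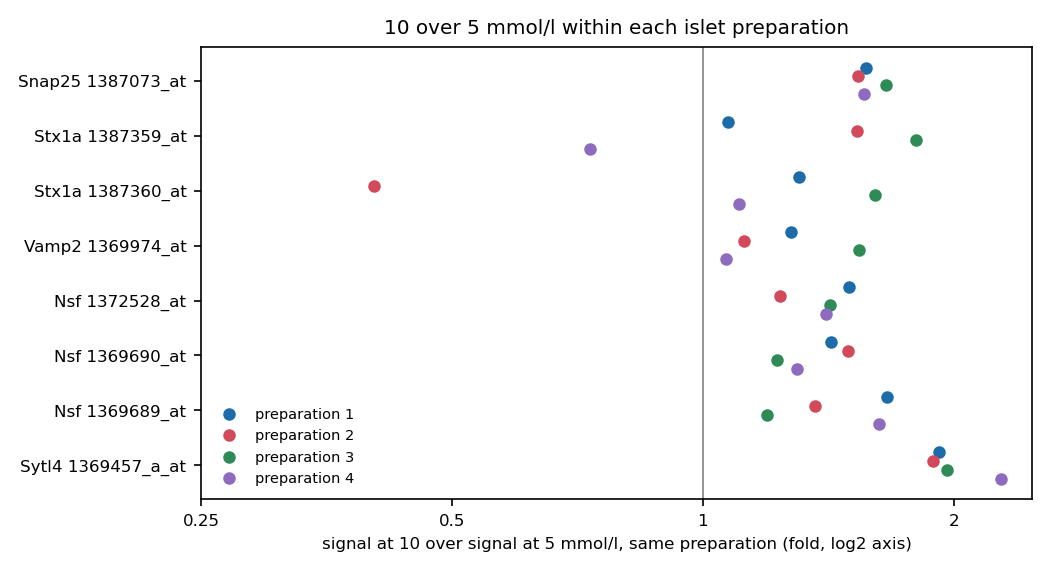
Ratio of the signal at 10 mmol/l to that at 5 mmol/l in the same preparation (horizontal axis, fold on a log2 axis) for the 8 tested member probe sets, with 1 coloured point per preparation. The points of Snap25, Vamp2, Nsf and Sytl4 are all right of 1, those of Sytl4 between 1.89 and 2.28, while those of Stx1a fall on both sides.

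A wider list of fusion machinery genes held 85 genes besides the members, of which 76 had a single-symbol probe set and 66 were tested. By the F-test of limma 33 of 66 changed, beside 41.8% of all tested probe sets. Between 10 and 5 mmol/l 7 rose, 8 fell and 51 did not pass, which is 10.6% and 12.1% beside backgrounds of 10.0% and 11.1%, and the median log2 difference was 0.04 beside 0.02 over all tested probe sets. With preparation as a block 13 of the 66 rose and 10 fell (23 in all), where 31.7% of all tested probe sets were called in either direction. The list had genes moving both ways at the step where Snap25, Nsf and Sytl4 rose.

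SNAREs of inner membranes, which serve traffic between the endoplasmic reticulum, the Golgi and endosomes, gave 5 of the 7 increases and 3 of the 8 decreases among 19 tested. Bet1, a SNARE of vesicles from the endoplasmic reticulum, had 1368 ± 86.2 at 10 mmol/l against 930 ± 21.1 at 5 mmol/l (SD, n = 4), a rise of 0.56 ± 0.07 (adjusted p = 9.15e-06, limma). Sec22b, another SNARE of that route, had 1442 ± 33.5 at 10 mmol/l against 969 ± 26.3 at 5 mmol/l, a rise of 0.57 ± 0.07 (adjusted p = 1.96e-05). Bet1l, a Golgi SNARE, rose by 0.58 ± 0.10 (adjusted p = 3.73e-04). Stx16 and Ykt6 made up the rest of the 5, and their calls were lost with median centring and in 3 (Stx16) and 9 (Ykt6) of 20 refits that left out an array or a preparation. That of Ykt6 was also lost with no level filter, with no trend and in a fit of the compared groups alone. Stx8, of endosomes, changed by -0.35 ± 0.09 (adjusted p = 0.0122) and Bnip1, of the endoplasmic reticulum, by -0.41 ± 0.11 (adjusted p = 0.0122), and Gosr1 was the third. The calls of Stx8 and Bnip1 were each lost in 2 of 20 refits that left out an array or a preparation, and that of Gosr1 in 15.

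Among Rab GTPases and their effectors, the group to which Sytl4 belongs, 1 of 11 tested rose at this step and 0 fell. This was Rab3d, a GTPase of secretory granules, with 781 ± 81.2 at 10 mmol/l against 422 ± 53.4 at 5 mmol/l (SD, n = 4), a rise of 0.89 ± 0.13 (adjusted p = 7.21e-05, limma). Rab27a, the GTPase that recruits granuphilin to the granule, had a difference of 0.20 ± 0.08 that did not pass (adjusted p = 0.0844), and passed with preparation as a block, fixed (adjusted p = 0.0433) or random (0.0393), but had an adjusted p of 0.390 with median centring. Of 3 NSF attachment proteins, the adaptors through which NSF grips the SNARE complex, Napb fell by 0.64 on the log2 scale (SE 0.19, adjusted p = 0.0207), a call lost in 8 of 20 refits without an array or a preparation. The ubiquitous adaptor Napa had 0.18 ± 0.09 (adjusted p = 0.192) and Napg 0.06 ± 0.09 (adjusted p = 0.690). These 3 and Rab27a, as partners of the members, and Syt13, Snapin, Gosr1 and the alpha cell gene Pou3f4, which complete the counts, are outside the rule for named genes and were chosen after their values were seen.

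Among synaptotagmins, Doc2b and complexins, listed together as calcium sensors and complexins, 1 of 10 rose and 1 fell. The name of the list is not a statement that each of its genes senses calcium. Syt13, a synaptotagmin, rose by 0.77 ± 0.17 (adjusted p = 0.00320, limma), and Syt9, another synaptotagmin, changed by -0.74 ± 0.19 (adjusted p = 0.00975), lost without preparation 1 (adjusted p = 0.0825). Of 2 Sec1/Munc18 proteins, which clasp syntaxins, Stxbp3 had 353 ± 37.1 at 10 mmol/l against 466 ± 44.9 at 5 mmol/l (SD, n = 4), a change of -0.40 ± 0.11 (adjusted p = 0.0113), lost without preparation 2 (adjusted p = 0.0705) and in 1 more such refit. Stx3, of 4 other target SNAREs of the plasma membrane, and Snapin were the other decreases, lost in 7 and 3 of the same 20 refits. Snapin, a protein that binds SNAREs, was 1 of 2 tested in the group listed as SNARE complex inhibitors. That group name is not a statement that Snapin inhibits fusion. Of the 6 other vesicle SNAREs and the 9 priming or docking factors tested, none passed at this step. Vamp2 itself did not pass there either (1369974_at, adjusted p = 0.226, limma).

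Stx3 was the single list gene called between 5 and 2 mmol/l. It had 154 ± 26.9 at 5 mmol/l against 98.7 ± 17.0 at 2 mmol/l (SD, n = 4), a rise of 0.64 ± 0.17 (adjusted p = 0.0469, limma) that was lost in 15 of 20 refits without an array or a preparation, up to an adjusted p of 0.231, and with median centring. Under the block by preparation 4 of the 66 list genes rose and 1 fell at that step (5 in all), where 9.87% of all tested probe sets were called in either direction. With the probe sets of each gene averaged, 0 list genes rose and 1 fell.

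Between 30 and 10 mmol/l, where no member passed, 6 of the 66 rose (9.09%, background 3.26%) and 3 fell (4.55%, background 3.56%), with a median of -0.01 beside -0.04 over all tested probe sets. The fit with preparation as a block had 7 higher and 8 lower (15 in all), where 14.8% of all tested probe sets were called in either direction. Stx18, a SNARE of the endoplasmic reticulum, had 528 ± 22.9 at 30 mmol/l against 367 ± 19.0 at 10 mmol/l (SD, n = 4), a rise of 0.53 ± 0.09 (adjusted p = 0.00228, limma). Vamp4, of the Golgi and endosomes, rose by 0.48 ± 0.12 (adjusted p = 0.0200), Syt4 by 0.36 ± 0.10 (adjusted p = 0.0310) and Sec22b by 0.27 ± 0.07 (adjusted p = 0.0318). Vamp3, the cellubrevin of recycling vesicles, changed by -0.36 ± 0.09 (adjusted p = 0.0188), Stxbp3 by -0.40 ± 0.11 (adjusted p = 0.0286) and Cplx2, a complexin that clamps assembled SNAREs, by -0.52 ± 0.14 (adjusted p = 0.0317). Of these 7, the call of Stx18 held in all 20 refits without an array or a preparation, and each of the others was lost in 6 to 10 of them, up to an adjusted p of 0.248. With median centring Sec22b, Vamp3, Stxbp3 and Cplx2 lost their calls, and with quantile normalization Sec22b and Cplx2 did. Bet1 and Bnip1 were the remaining increases, lost in 17 and 16 of the 20 refits.

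**Figure D4:**
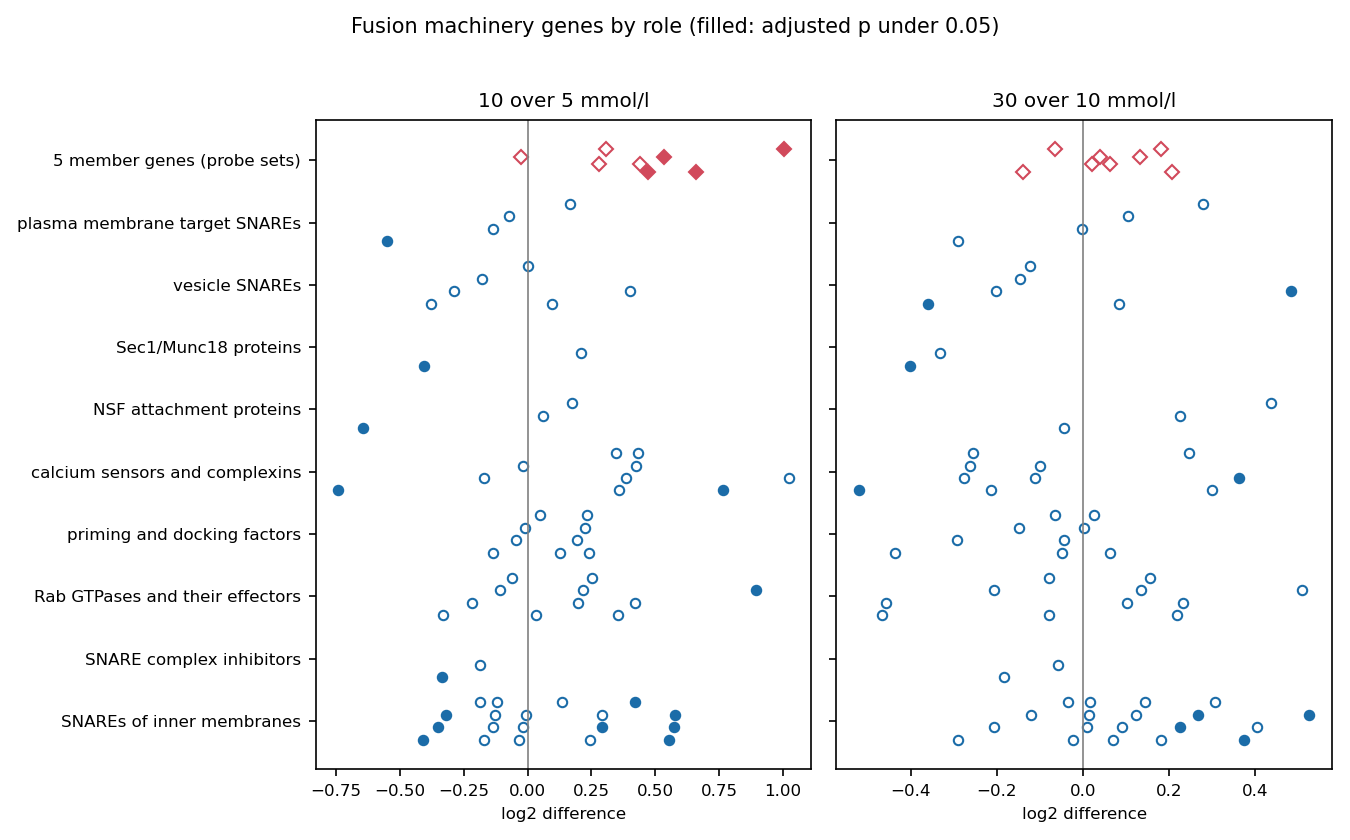
Log2 differences (horizontal axes, with different ranges) of the 8 member probe sets (red diamonds) and of 66 other fusion machinery genes by role (blue circles), for 10 over 5 mmol/l on the left and 30 over 10 mmol/l on the right, filled where the adjusted p of limma was under 0.05. On the left the filled diamonds lie right of 0 (0.47 to 1.00), whereas filled circles lie on both sides.

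Markers of islet cells moved at the same step. The beta cell list had 7 measured genes of 8, and their summed signal was 25431 to 29618 at 2 mmol/l, 29109 to 35099 at 5 mmol/l, 37279 to 48836 at 10 mmol/l and 36153 to 43298 at 30 mmol/l. Of the 7, 3 rose between 10 and 5 mmol/l and 0 fell: the glucose transporter Slc2a2 by 0.79 ± 0.09 (adjusted p = 8.92e-06, limma), the transcription factor Mafa by 0.61 ± 0.11 (adjusted p = 4.93e-04) and the granule peptide Iapp by 0.38 ± 0.09 (adjusted p = 0.00352). The insulin genes had 0.21 ± 0.09 for Ins1 (adjusted p = 0.127) and 0.23 ± 0.12 for Ins2 (adjusted p = 0.174), and both passed with preparation as a fixed block (0.0238 and 0.0354). Under a random block Ins1 passed (0.0418) and Ins2 did not (0.0638). With quantile normalization Ins1 had the opposite sign, -0.09 (adjusted p = 0.261), and Ins2 had 0.04 (adjusted p = 0.790). The transcription factors Pdx1 and Nkx6-1 had -0.14 ± 0.15 (adjusted p = 0.575) and 0.14 ± 0.10 (adjusted p = 0.331). With quantile normalization the call of Iapp was lost (adjusted p = 0.571). The part of beta cell markers in the rise of Snap25, Nsf and Sytl4 was not tested.

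Nerve endings also use Snap25, Stx1a and Vamp2. The Schwann and neural cell list, with 9 measured genes of 11, summed to 1438 to 1719 at 2 mmol/l, 1385 to 1739 at 5 mmol/l, 1023 to 1230 at 10 mmol/l and 1047 to 1244 at 30 mmol/l. Its arrays at 10 and 30 mmol/l were all below those at 2 and 5 mmol/l. Of its 4 tested genes 2 fell between 10 and 5 mmol/l and 0 rose, and the most abundant, the clathrin adaptor Snap91, had 390 ± 63.3 at 10 mmol/l against 750.4 ± 111 at 5 mmol/l (SD, n = 4). The other 5 measured genes of that list, among them S100b, Sox10 and Gfap, were under the level filter. Snap91 is a large part of the sum, which is therefore not a measure of nerve or Schwann cell content. All 10 measured acinar genes were under it too, and their sum was 103 to 159 over the 16 arrays. Krt7, the most abundant duct marker, had 976 ± 65.1 at 10 mmol/l against 1519 ± 92.2 at 5 mmol/l. Of 4 alpha cell genes 1 rose between 10 and 5 mmol/l (Pou3f4, 0.76 ± 0.21, adjusted p = 0.0153, limma), and of 3 delta cell genes 1 rose (Sst, 0.35 ± 0.06, adjusted p = 6.81e-04), while Gcg did not pass (0.26 ± 0.10, adjusted p = 0.0724). The most abundant alpha and delta cell genes, glucagon (Gcg) and somatostatin (Sst), had 11919 ± 1441 and 8705 ± 520.2 at 10 mmol/l, against 9962 ± 1142 and 6812 ± 261 at 5 mmol/l. Of the tested genes of the PP and epsilon cell list (2), the macrophage and leukocyte list (3) and the stellate cell and fibroblast list (9), 0 were called between 10 and 5 mmol/l, and of 5 endothelial genes 1 fell (Esam, 94.2 ± 18.0 at 10 mmol/l against 128 ± 14.8 at 5 mmol/l). The part of these other cell types in the members' differences was not tested.

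Among 10222 other tested genes, the 5 whose log2 signal had the highest Pearson correlation with Snap25 over the 16 arrays were Tmem215 (r = 0.97), Stard5 (0.97), C1galt1c1 (0.97), Car5b (0.97) and Adra2a (0.96). Tmem215 averaged 786, 867, 3615 and 3498 at 2, 5, 10 and 30 mmol/l, and Adra2a, the adrenergic receptor that restrains insulin release, averaged 168, 209, 775 and 709. For Sytl4 the closest were Eid1 (0.97), Gpr6 (0.97), Glrx (0.96), Golm2 (0.95) and C1galt1c1 (0.95). For Nsf, by its probe set with the highest mean, they were Fam91a1 (0.98), Mia3 (0.96), Cmtr1 (0.96), Gpr6 (0.96) and Pde4b (0.95). Gpr6 thus appears with both Sytl4 and Nsf, and averaged 108, 105, 312 and 515 at 2, 5, 10 and 30 mmol/l. For Vamp2 the closest were Ubr4 (0.90), Unc80 (0.90), Ifi27 (0.90), Rfx5 (0.89) and Cpsf6 (0.88), and for Stx1a Arl2bp (0.81), Terf2ip (0.80), Grm8 (0.77), Smim18 (0.76) and Tgfbi (0.75). The highest of so many correlations over 16 arrays are large by selection, and they share the 4 groups and preparations.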

How the data were processed

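Transcripts were measured in 16 islet RNA samples with Affymetrix Rat230_2 arrays. Signal intensity, unlogged, was computed by the authors in GCOS per the submitters' processing notes, and the version and settings are not given in the sources used here. The authors' values of each array share 1 trimmed mean. Scanner run files gave 4 fluidics runs, 4 modules, 3 scan days and 2 chip lots. Detection calls were not used here.

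The table has 31099 probe sets, 57 of them controls. Signals under 3.4, the 10th percentile, were set to 3.4 before log2. The upper 60% by mean level (18625) were tested with limma 3.58.1 in R 4.3.3 (statmod 1.5.0): lmFit over 16 arrays with 12 residual degrees of freedom, eBayes with trend, two-sided, Benjamini-Hochberg over all tested probe sets. Every adjusted p in the text is limma's, and intervals are 95%. The fit was tested on simulated data with independent noise on each array, so that check does not cover effects shared by a preparation. Of the 31042 other probe sets the annotation gave 1 symbol to 20826, several to 436 and none to 9780. For a gene outside the members, the brightest probe set with that symbol alone was used. Promoters came from RefSeq, figures from matplotlib 3.10.9 in Python 3.11.15.

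The replicate number was checked as a pair: after removal of group means, 24 same-numbered pairs correlated at 0.136 to 0.434 and 72 other pairs at -0.264 to 0.130, and 16 of 16 arrays matched their own number best. The design text gives different preparations, and each number was also 1 fluidics run. The fit with this block has 9 residual degrees of freedom.

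The members, gene lists, motifs and alternatives were chosen with earlier results of these data known. Named genes are all members, up to 4 called list genes with the smallest p per direction at each of the 3 neighbouring steps, the 8 list genes with the smallest F-test p, the 5 genes closest to each member by correlation, the beta cell markers and the most abundant gene of each other marker list. The text prints a part of these. Alternatives were blocks by preparation (fixed or random) and scan day, quantile normalization, median centring, no or a stricter level filter (upper 40%), no floor, an offset of 50, eBayes with no trend or robust, an adjusted p under 0.01, fits of just the compared groups, averaging over the probe sets of each list gene, and leaving out arrays or preparations. An uncalled value that stays uncalled counts as unchanged, whatever its sign.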

Additional observations from a re-analysis of the deposited data

Results flagged for a closer look

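In 25 probe sets of members and named list genes, 100 groups of 4 arrays were searched for an array far from the other 3, and 4 groups held one, where chance alone gives about 1 in 20. Vamp2 1371160_at read 2.1 in preparation 3 at 10 mmol/l, against 9.7 to 11.1 on the other arrays of that group. This probe set was not tested, and 2.1 is under the floor of 3.4. Cplx2 read 183.6 in preparation 2 at 2 mmol/l, against 125 to 131.2. Stx16 read 531.3 in preparation 1 at 2 mmol/l, against 498.8 to 502.6. Ykt6 read 261.9 in preparation 1 at 10 mmol/l, against 219.4 to 224.2.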

How the results depend on the processing

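Over 48 member differences and 1572 values under alternatives, 1543 stayed on their side of the threshold, 23 lost a call, 6 gained one and 0 called values changed sign. No call of Snap25, Sytl4 or Nsf 1372528_at was lost, and the lost and gained calls of Vamp2 1369974_at and the other Nsf probe sets are in the report, except 4 lost at an adjusted p under 0.01 (Vamp2 1369974_at for 30 over 2, Nsf 1369689_at for 10 over 2, and Nsf 1369690_at for 10 over 2 and 30 over 5 mmol/l). Leaving out an array or a preparation gave 3 to 5 called members for 10 over 5 mmol/l, 4 to 6 for 10 over 2 mmol/l and 5 to 6 by the F-test. Calls over all tested probe sets in these refits ranged from 2510 to 3919, from 4477 to 6073 and from 5596 to 7590, in that order. The lowest member count and the lowest count over all probe sets need not come from the same refit. With the replicate block, 5 list genes were called for 5 over 2 mmol/l (1 without it), 23 for 10 over 5 mmol/l (15 without it) and 15 for 30 over 10 mmol/l (9 without it), and 6 members for 10 over 5 mmol/l (4 without it). With preparation as a random block (correlation 0.276) 3 list genes were called for 5 over 2 mmol/l and 16 for 30 over 10 mmol/l, and with median centring 0 and 4. The fixed block changed the calls of Vamp2 1369974_at and Nsf 1369690_at for 10 over 5 mmol/l and no other member call. Over all probe sets, calls for 5 over 2 mmol/l numbered 485, 1839 with the replicate block, 1587 with the random block, 1254 with scan day, 298 with median centring, 180 with no trend, 75 at an adjusted p under 0.01, 100 with only these groups, and 25 without preparation 2. Those for 30 over 10 mmol/l numbered 1271, 2754 with the replicate block, 2486 with the random block, 2081 with scan day, 485 at 0.01, 814 with only these groups and 383 without preparation 3. For 10 over 5 mmol/l they numbered 3935, 5895 with the replicate block, 2246 at 0.01 and 2510 without preparation 3. At 0.01 they were 3916 of 6064 for 10 over 2, 4690 of 6869 for 30 over 2 and 3649 of 5500 for 30 over 5 mmol/l. Median centring gave 229 higher and 69 lower for 5 over 2 mmol/l (310 and 175 without it), 1150 and 2548 for 10 over 5 mmol/l (1867 and 2068), and 557 and 398 for 30 over 10 mmol/l (608 and 663). The causes were not tested. Signals near the floor, as in Vamp2 1371160_at, carry no order.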
